A study of Mus musculus with 41 samples.

Results

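The genes described here are the mouse Fc gamma receptor genes Fcgr1, Fcgr2b, Fcgr3 and Fcgr4 together with Fcer1g, the signalling chain that the activating receptors share. They are 5 of 21755 protein-coding genes on the chromosomes used (1 to 19 and X), named as a receptor family, with no threshold on a measured value and with earlier results of these data known. A gene was called marked in a list where at least 1 bp of a deposited peak overlapped its promoter, meaning the windows of 2 kb to each side of every annotated transcription start site (TSS). Peaks over the gene bodies and over the chromosome 1 stretch from Fcgr2b to Fcgr3 were collected as well.

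The study profiled lactylation of histone H3 at lysine 18 (H3K18la) by CUT&Tag, which uses an antibody against a histone mark to bring a cutting transposase to the DNA that carries it, beside H3K27ac, H3K4me3 and H3K27me3. The mouse data comprised 41 samples in 8 cell types or tissues, which the authors combined into 24 peak lists, with 1 list for each cell type and mark. Of these lists 17 were made from 2 samples and 7 from 1 sample. A list therefore carries no replicate error, no test between cell types was possible, and every value is a single value for the cell type and mark.

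BMDM are macrophages grown from bone marrow of C57BL/6 mice for 7 days with M-CSF. Before harvest they were reseeded in medium with serum, for which no M-CSF is listed. PIM are post-ischemia macrophages, sorted as CD45+ CD11b+ F4/80+ CD64+ cells from the calf muscle of female C57BL/6 mice aged 8 to 12 weeks, 2 days after hind-limb ischemia. CD64 is the product of Fcgr1, so marks at Fcgr1 in PIM describe cells that were picked with the protein of that gene. GAS is whole gastrocnemius muscle of C57BL/6 mice of the same sex and age, a tissue that holds many cell types besides muscle fibres. In such a tissue, fewer cells that carry a mark and less of the mark in each cell cannot be told apart. ADIPO are nuclei of fat tissue from AdipoCre-NuTRAP mice aged 10 weeks, in which a Cre active in adipocytes tags the nuclei for capture on streptavidin beads. MB are primary myoblasts of C57BL/6 mice, and MT are the myotubes they form after 3 days of differentiation. The mESC-ser and mESC-2i samples come from the single embryonic stem cell line E14 kept with LIF in serum or in medium with inhibitors of MEK and GSK3. The labels name no alteration of a gene described here.

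Fc gamma receptors bind the constant part of immunoglobulin G and link antibodies to phagocytosis, killing and cytokine release by macrophages and other myeloid cells. Fcgr1 (CD64, the high-affinity receptor), Fcgr3 (CD16) and Fcgr4 are activating receptors that assemble with the Fcer1g chain, whose ITAM motif recruits the kinase Syk after crosslinking. Fcgr2b (CD32B) carries an inhibitory ITIM motif instead, which recruits the phosphatase encoded by Inpp5d and restrains the activating receptors on the same cell. H3K27ac is a mark of active promoters and enhancers, H3K4me3 of promoters and H3K27me3 of genes silenced by Polycomb.

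In mm10 (GRCm38), Fcgr1 (ENSMUSG00000015947.10) lies on the minus strand at chr3:96282909-96293969. The low-affinity receptor genes lie together on chromosome 1, with Fcgr2b (ENSMUSG00000026656.15, minus strand) at chr1:170958617-170976547, Fcgr4 (ENSMUSG00000059089.4, plus strand) at chr1:171018920-171029761 and Fcgr3 (ENSMUSG00000059498.13, minus strand) at chr1:171051174-171064935. The receptor span from the first base of Fcgr2b to the last of Fcgr3 is 106319 bp long. Its other genes in the GENCODE annotation are non-coding, namely Gm38204 antisense to Fcgr2b, the lincRNA Gm10522, the snRNA Gm26110 inside Fcgr4 and Mir6546 inside Fcgr3. RefSeq also places 5 tRNA genes in the gap of 21.4 kb between Fcgr4 and Fcgr3, and the lncRNA Gm34968 upstream of Fcgr2b. Fcer1g (ENSMUSG00000058715.11, minus strand, chr1:171229572-171234365) lies 165 kb beyond Fcgr3 on the same chromosome.

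The sequences below are the stretches just before the main TSS of each gene, shown because maxima of macrophage peaks at Fcgr1 and Fcer1g fall inside them, followed by an upstream element each of Fcgr4 and Fcgr1 that all macrophage lists of the active marks share. The main TSS is that of most protein-coding transcripts, or the 5′-most where they tie, as for Fcer1g. They were read from the RefSeq copy of GRCm38, 5′ to 3′ on the strand of the gene, over up to 250 bases, and stop short of any annotated UTR of an alternative transcript. The elements are 300 bases around the BMDM H3K18la maximum, on the plus strand. Capitals mark the motif GAGGAA (the core bound by PU.1, a master regulator of macrophage genes), which on these strands reads TTCCTC, and the motif TTCNNNGAA, the palindrome of STAT factors found in interferon-gamma activated sites.
Fcgr1 promoter, chr3:96293970-96294219, minus strand: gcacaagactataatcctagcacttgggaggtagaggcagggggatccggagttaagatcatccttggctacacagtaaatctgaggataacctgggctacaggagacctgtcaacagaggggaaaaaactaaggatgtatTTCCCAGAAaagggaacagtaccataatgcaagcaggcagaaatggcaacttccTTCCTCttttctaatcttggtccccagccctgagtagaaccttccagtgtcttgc
Fcgr3 promoter, chr1:171059404-171059626, minus strand: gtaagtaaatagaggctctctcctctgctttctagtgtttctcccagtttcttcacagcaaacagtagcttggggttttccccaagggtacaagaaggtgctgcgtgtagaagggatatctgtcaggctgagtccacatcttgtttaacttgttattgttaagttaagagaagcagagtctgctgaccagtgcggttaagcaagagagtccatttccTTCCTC
Fcgr4 promoter, chr1:171018670-171018919, plus strand: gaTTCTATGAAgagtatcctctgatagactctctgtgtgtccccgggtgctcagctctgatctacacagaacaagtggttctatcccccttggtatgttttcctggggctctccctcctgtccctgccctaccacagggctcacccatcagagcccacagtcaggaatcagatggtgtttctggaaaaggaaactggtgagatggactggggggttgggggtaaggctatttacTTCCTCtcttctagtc
Fcer1g promoter, chr1:171234366-171234615, minus strand: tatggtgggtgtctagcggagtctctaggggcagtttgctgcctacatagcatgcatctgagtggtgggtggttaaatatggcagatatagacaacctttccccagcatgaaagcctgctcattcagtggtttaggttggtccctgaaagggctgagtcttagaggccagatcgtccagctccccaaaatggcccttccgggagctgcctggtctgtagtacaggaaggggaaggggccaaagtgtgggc
Fcgr2b promoter, chr1:170976128-170976190, minus strand: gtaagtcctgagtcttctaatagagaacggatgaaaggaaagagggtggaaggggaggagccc
Fcgr4 upstream element, chr1:170998300-170998599, plus strand: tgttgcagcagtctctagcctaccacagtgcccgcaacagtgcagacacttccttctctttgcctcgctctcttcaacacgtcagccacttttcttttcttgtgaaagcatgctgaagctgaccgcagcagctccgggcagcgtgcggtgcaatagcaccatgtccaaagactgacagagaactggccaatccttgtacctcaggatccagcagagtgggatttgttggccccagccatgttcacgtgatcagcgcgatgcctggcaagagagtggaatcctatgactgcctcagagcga
Fcgr1 upstream element, chr3:96300669-96300968, plus strand: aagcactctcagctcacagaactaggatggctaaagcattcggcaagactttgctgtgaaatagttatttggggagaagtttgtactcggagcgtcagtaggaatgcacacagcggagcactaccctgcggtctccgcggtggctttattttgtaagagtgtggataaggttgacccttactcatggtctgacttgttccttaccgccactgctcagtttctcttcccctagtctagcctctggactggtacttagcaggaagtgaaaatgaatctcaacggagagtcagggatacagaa

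Within the 250 bases before the main TSS, searched in full on both strands also where fewer are printed, GAGGAA occurred in the activating receptor genes Fcgr1 (bases 55 to 50 before the TSS), Fcgr3 (6 to 1) and Fcgr4 (16 to 11), and not in Fcgr2b or Fcer1g. These letters are common, being present in 22.9% of 21670 promoters over 250 bases and in 9.68% over the last 100 bases. TTCNNNGAA occurred in Fcgr1 (bases 109 to 101, read as TTCCCAGAA) and in Fcgr4 (bases 248 to 240, read as TTCTATGAA), against 6.94% of all promoters. Neither motif occurred in the 300 bases of the upstream elements, where GAGGAA was present in 42.9% and TTCNNNGAA in 8.91% of windows of that length at all BMDM H3K18la maxima. TGANTCA, the AP-1 palindrome, occurred in none of the 7 windows, against 5.87% of promoters and 26.1% of the BMDM windows. The motifs do not overlap each other here, were chosen after the sequences had been seen, and a match is a description of letters only.

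H3K18la lay over the promoters of all 5 genes in both macrophage lists and over 1 or 2 of them in each of the other lists. In BMDM 5 of 5 genes were called, where 18.5% of all protein-coding genes were, and in PIM 5 of 5 against 37.8%. Of all genes 17.2% were called in both lists. The counts were 1 of 5 in ADIPO (44.7% of all genes), 1 in GAS (36.1%), 1 in MB (11.1%), 2 in MT (34.8%), 2 in mESC-ser (33.4%) and 2 in mESC-2i (37.8%). Counted over genes and lists, this gave 10 of 10 calls in macrophages and 9 of 30 in the other cell types, the latter near the shares of all genes called in those lists. By cell type, the genes outside macrophages were Fcer1g in ADIPO and GAS, Fcgr2b in MB, Fcgr2b and Fcgr4 in MT, and Fcgr2b and Fcgr3 in both stem cell lists. When the TSS base itself had to lie under the peak, the macrophage count stayed at 10 and the other count came to 5. With only the 5000 largest peaks of each list, the counts fell to 4 of 10 and 2 of 30.

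H3K27ac and H3K4me3 followed the same outline, with the inhibitory receptor as the exception for H3K27ac within 2 kb of the starts. H3K27ac was called at 4 of 5 genes in BMDM (34.0% of all genes) and at 4 in PIM (48.8%), the missing gene being Fcgr2b in both. With the 5000 largest peaks of each list, H3K27ac calls at the 5 genes in macrophages fell to 4 of 10. It was called at 2 genes in ADIPO (46.1%), 1 in GAS (47.0%) and 1 in mESC-ser (40.2%). H3K4me3 was called at 5 of 5 genes in PIM (59.4%), 1 in GAS (64.2%), 2 in mESC-ser (48.8%) and 2 in mESC-2i (61.8%), and BMDM had no H3K4me3 list here. Of all genes 15.1% were called in all 5 macrophage lists of the active marks (H3K18la and H3K27ac in BMDM and PIM, H3K4me3 in PIM), and 4 of the 5 genes described here were among them.

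H3K27me3 was called at 1 gene in BMDM (19.2% of all genes) and 1 in PIM (26.4%), in both cases Fcgr3. GAS had it at 4 of 5 genes (23.9%), MB at 0 (12.5%), MT at 2 (20.1%), mESC-ser at 1 (27%) and mESC-2i at 1 (22.5%). Fcer1g had no H3K27me3 peak in any of the 7 lists, over its promoter or its body.

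**Figure D1:**
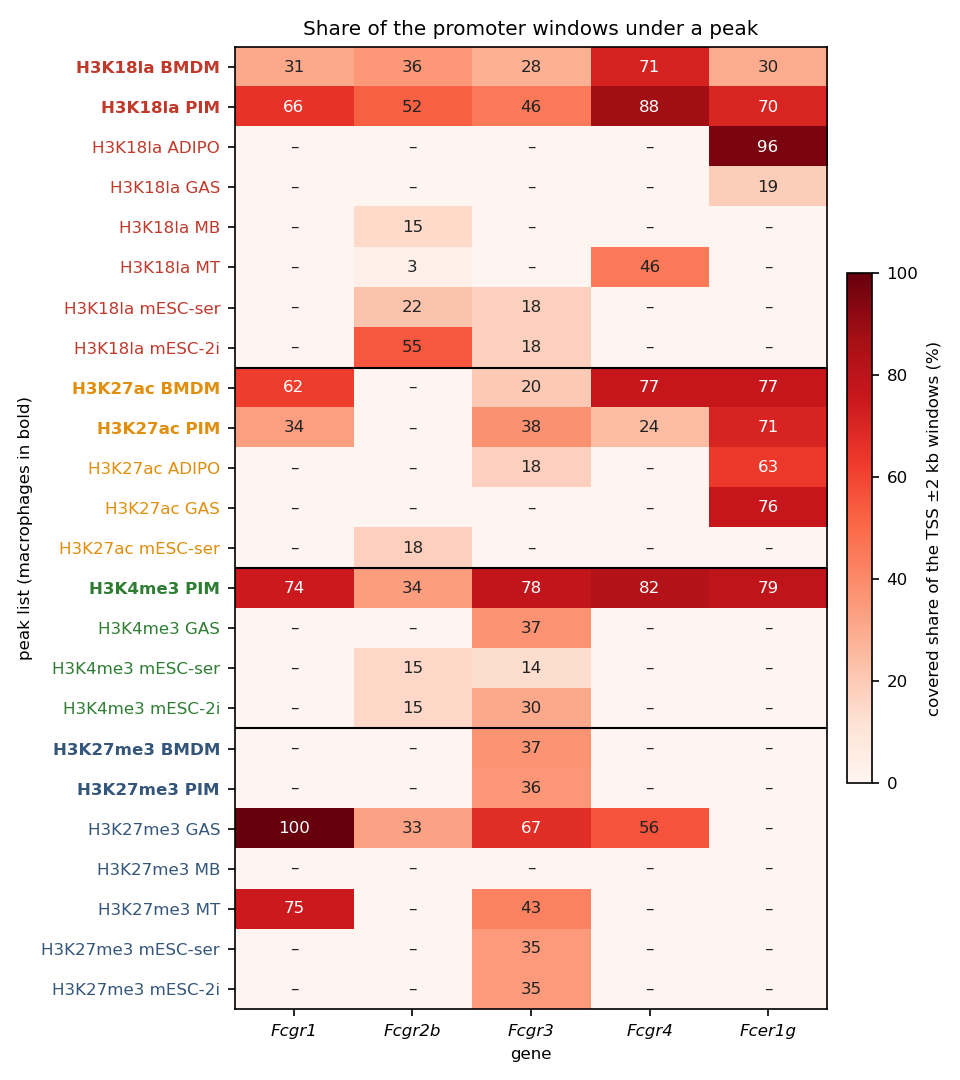
Share of the promoter windows (2 kb to each side of every TSS, merged) that lay under a peak, in percent, for the 5 genes (columns) in the 24 lists (rows, ordered by mark, macrophages in bold); a dash means no peak. The rows of BMDM and PIM H3K18la are filled at all 5 genes, from 28.4% to 88.2%, while Fcgr1 is empty in every active-mark list of the other cell types.

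H3K18la also spread further over these promoters than over most marked promoters. In BMDM it covered 30.7% of the windows of Fcgr1, 35.9% of Fcgr2b, 28.4% of Fcgr3, 71.3% of Fcgr4 and 29.9% of Fcer1g, all above the median of 12.8% over the genes called in that list. In PIM the shares were 65.5%, 52.5%, 45.6%, 88.2% and 70.0% in the same order, against a median of 22.9%. Peaks were wider in PIM as a whole, with a median width of 1615 bp against 916 bp in BMDM. By size the peaks were less apart from others. Peak size is given here as the rank of the total signal within its own list, written as the top percent, so that a low value is a large peak. The largest promoter peak in BMDM stood in the top 11.0% for Fcgr4, 18.7% for Fcgr1, 43.1% for Fcgr2b, 53.6% for Fcgr3 and 60.1% for Fcer1g, where the median over called genes was 48.8%. In PIM the values were 17.2%, 15.1%, 6.29%, 47.3% and 19.5% in the same order of genes, with a median of 40.3%.

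Fcgr1, the high-affinity receptor, had the simplest pattern. All 5 macrophage lists of the active marks had a peak over its TSS, none of the 12 active-mark lists of other cell types did, and H3K27me3 lay there in GAS and MT. It was the only gene of the 5 with H3K18la at the promoter in both macrophage lists and in none of the other 6, a pattern held by 228 genes or 1.05% of all genes. With the TSS base under the peak, 199 genes or 0.915% had it, and Fcgr1 was again the only one of the 5.

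The BMDM H3K18la peak at Fcgr1 was 1241 bp wide and ranked 3655 of 19571. The PIM peak was 3679 bp wide and ranked 4849 of 32066. Their maxima, and those of the PIM H3K27ac and H3K4me3 peaks, fell within chr3:96293985-96293993, between −17 and −23 bp of the TSS (negative values are upstream) and so inside the Fcgr1 sequence above. The PIM H3K4me3 peak reached 5884 bp into and around the gene and stood in the top 5.66% of its list. The H3K27ac peaks were of middle rank, in the top 40.8% in BMDM and 40.5% in PIM. In GAS an H3K27me3 peak of 6864 bp covered 100% of the promoter windows and ranked in the top 10.4%, and in MT H3K27me3 covered 74.6% with a peak in the top 72.8%. The macrophage active marks and the muscle H3K27me3 thus lay over the same bases in different cell types.

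A further element lay 7.69 kb upstream of Fcgr1 (distance of its centre), in intergenic sequence at chr3:96299711-96303601. All 5 macrophage active-mark lists had peaks there, with 1906 bp common to all, and so did GAS H3K4me3 and the H3K27me3 lists of GAS, MT and mESC-ser. For H3K18la and H3K27ac the largest peak there ranked above the peak at the Fcgr1 TSS of the same list. PIM H3K18la was in the top 4.37%, the BMDM H3K18la peaks in the top 12.9% and 14.9%, BMDM H3K27ac in the top 9.80%, the 2 PIM H3K27ac peaks in the top 19.3% and 62.5%, and PIM H3K4me3 in the top 15.5%. The maxima of BMDM H3K18la, PIM H3K27ac, PIM H3K4me3 and MT H3K27me3 coincided at chr3:96300819-96300839.

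**Figure D2:**
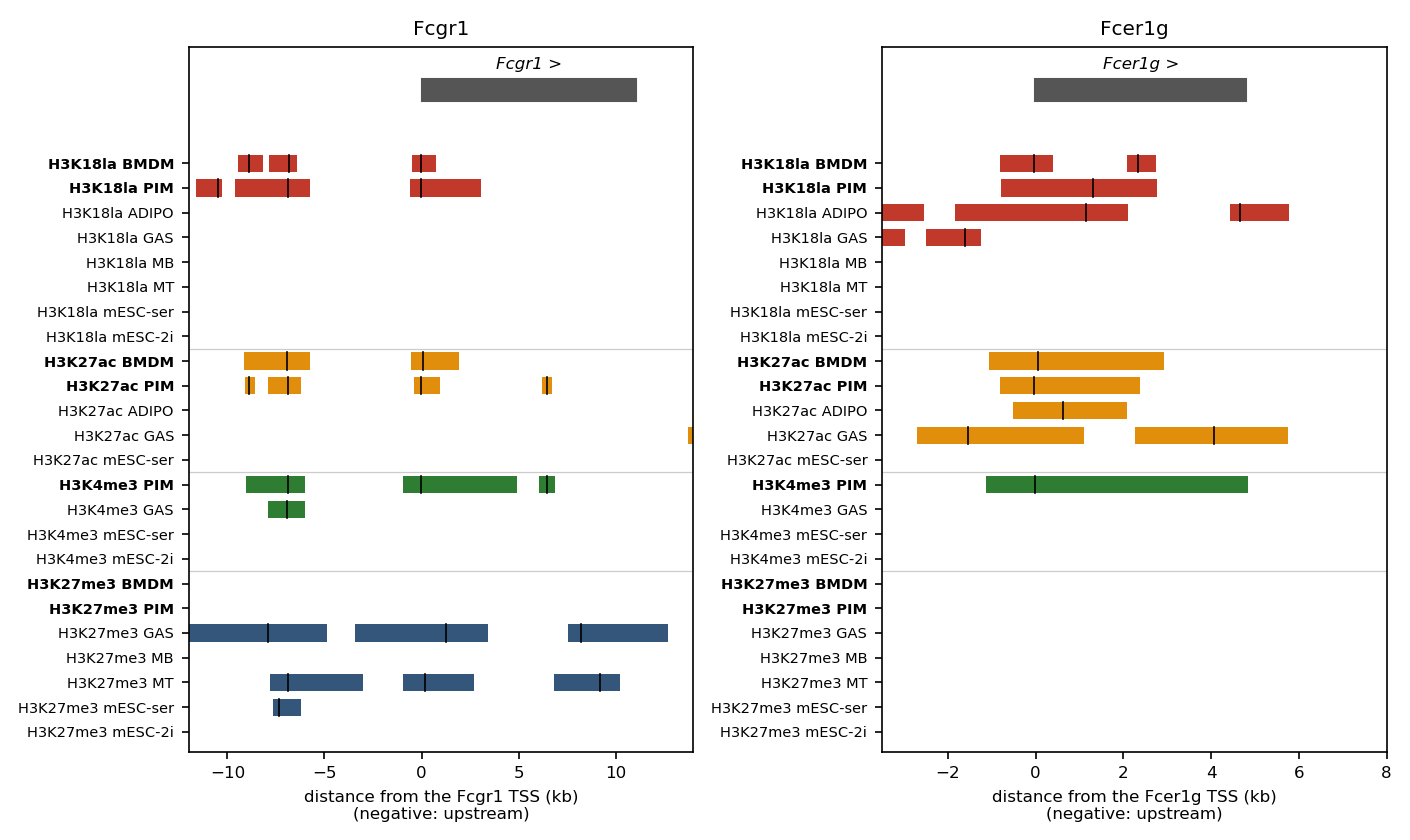
Peaks (bars) and their maxima (black ticks) in the 24 lists around Fcgr1 (left) and Fcer1g (right), by distance from the TSS in kb with the gene drawn left to right; bars are coloured by mark and macrophages are in bold. Fcgr1 has macrophage peaks at its TSS and at the element centred 7.69 kb upstream, with H3K27me3 in GAS and MT over both, while Fcer1g has active-mark peaks in macrophages, ADIPO and GAS and no H3K27me3.

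Fcgr4, the activating receptor between Fcgr2b and Fcgr3, had the broadest promoter cover by H3K18la of the 5 genes in both macrophage lists. Its window was called in 5 of 5 macrophage active-mark lists, in 1 of 12 others (MT H3K18la, 45.7% covered, top 63.2%) and in GAS H3K27me3 (55.9% covered). In BMDM an H3K18la peak of 1808 bp lay wholly upstream, with its maximum at −1258 bp (top 11.0%), and another of 1508 bp lay over the TSS, with its maximum at 17 bp (top 25.6%). PIM had a single peak of 4572 bp over the same stretch with its maximum at 875 bp, inside the gene. The PIM H3K18la, MT H3K18la and PIM H3K27ac maxima fell within chr1:171019791-171019799. H3K27ac was unequal between the macrophages here, covering 76.8% of the window in BMDM and 24.5% in PIM, where the peak was among the smallest of its list (top 93.2%) and missed the TSS base.

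An intergenic element centred at −20.3 kb of the Fcgr4 TSS (chr1:170996627-171000578, 3952 bp), in the gap of 42.4 kb between Fcgr2b and Fcgr4, was marked in macrophages and hardly elsewhere. It held peaks of all 5 macrophage active-mark lists, of 0 of the 12 other active-mark lists and, at its edge, of MT H3K27me3. The maximum of that MT peak lay inside the element, at chr1:170996930, close to the maximum of a smaller BMDM H3K18la peak (top 48.8%). No list outside macrophages reached the 1004 bp common to the 5 (chr1:170998086-170999089), and every 50-base word in them occurs once in the genome. The BMDM H3K18la peak, 3220 bp wide and in the top 5.65%, was the largest BMDM H3K18la peak in the receptor span, above those at the TSSs. The other ranks were the top 24.7% for PIM H3K18la, 20.5% for BMDM H3K27ac, 51.2% for PIM H3K27ac and 38.2% for PIM H3K4me3. These elements were picked out after the peaks had been seen, and their target genes were not measured.

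**Figure D3:**
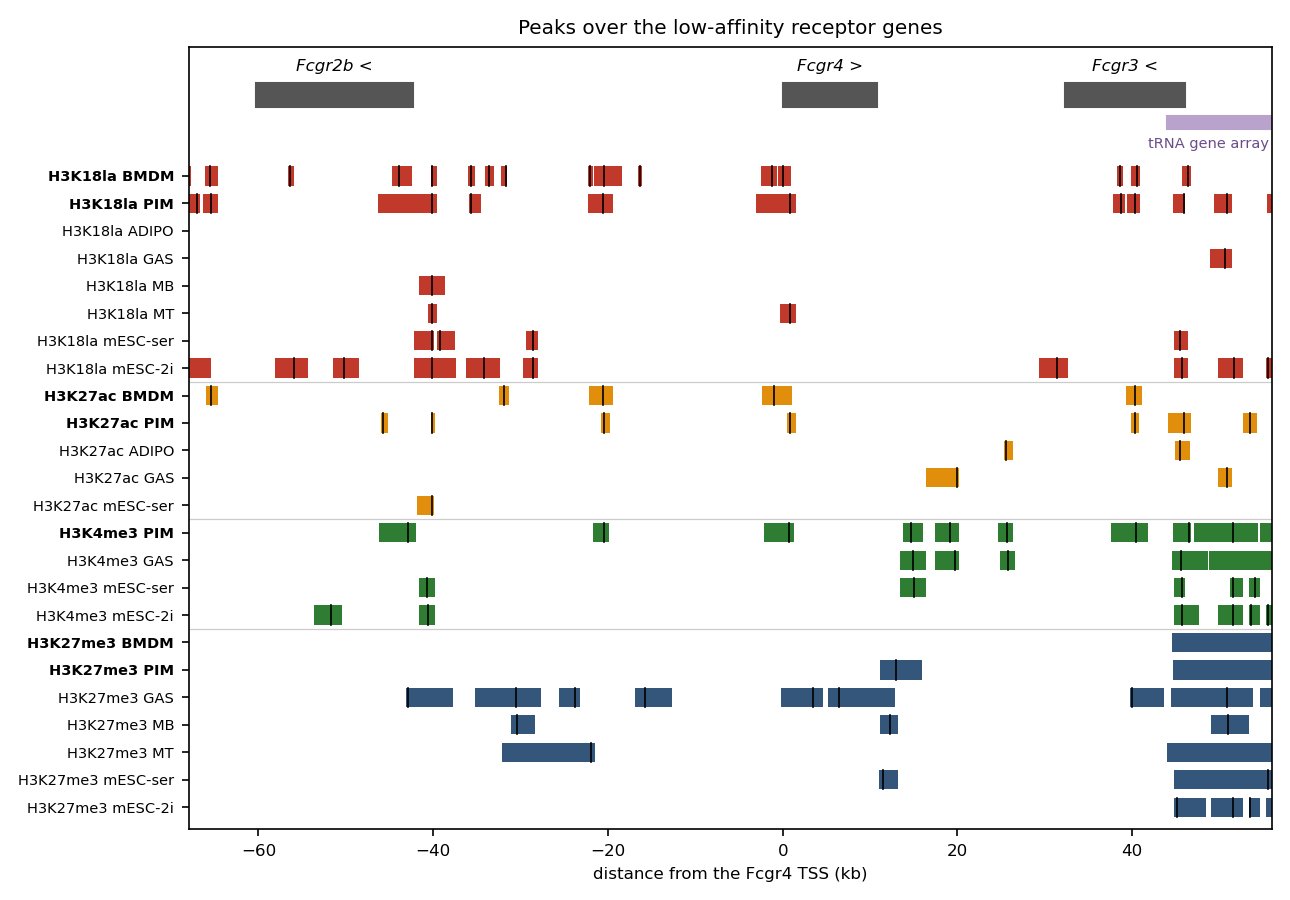
Peaks (bars) and their maxima (black ticks) in the 24 lists over the receptor span, by distance from the Fcgr4 TSS in kb; grey boxes are genes with their direction, the lilac box is a tRNA gene array, bars are coloured by mark and macrophages are in bold. The element centred at −20.3 kb has active-mark peaks in the 5 macrophage lists alone, and the H3K27me3 peaks at the right edge reach into the tRNA genes.

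Fcgr3, the activating receptor at the far end of the span, looked marked in many cell types, and its TSSs differed in this. At the main TSS (chr1:171059403), start of 2 of its 3 protein-coding transcripts, the window was called in 5 of 5 macrophage active-mark lists, 0 of 12 others and 1 of 7 H3K27me3 lists (GAS). At the upstream TSS (chr1:171064935), start of 1 protein-coding transcript, it was called in 4 of 5, 6 of 12 and 6 of 7. Counted by its main TSS alone, Fcgr3 joins Fcgr1 as a gene with H3K18la in both macrophage lists and in none of the other 6. The peaks at the main TSS were of middle rank for H3K18la, with BMDM in the top 58.5% (963 bp, maximum at −49 bp) and PIM in the top 47.3%. They were small for H3K27ac, in the top 72.2% in BMDM and 63.6% in PIM, where the third quartiles over called genes were 67.0% and 48.2%. H3K4me3 in PIM was larger, at 4230 bp and in the top 11.3%.

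The upstream TSS lies at the edge of an array of tRNA genes. H3K27me3 peaks there reached over chr1:171062923-171089390 (26.5 kb), which holds 15 of the 37 RefSeq tRNA genes of chromosome 1. Of them 5 lie within 2 kb of the upstream TSS and 0 within 2 kb of the main TSS. Some of these H3K27me3 peaks were among the largest of their lists, with rank 12 of 15798 in PIM (25821 bp), rank 11 of 24436 in mESC-ser (22557 bp) and rank 58 of 11768 in BMDM (25304 bp). At chr1:171078088-171078090 the maxima of 6 lists coincided, those of H3K4me3 in PIM and GAS and of H3K27me3 in BMDM, PIM, MT and mESC-2i, so that an active mark and the Polycomb mark peaked on the same bases. The array is repetitive. Of the 50-base words starting in it 29.3% occur once in the genome, and of the 150-base words 50.1%. In the window of the upstream TSS the shares were 31.1% and 55.7%, whereas in the windows of the main TSSs they were 95.4% for Fcgr3, 99.3% for Fcgr1, 97.2% for Fcgr2b, 100% for Fcgr4 and 96.6% for Fcer1g at 50 bases. Reads that match several places are placed at 1 of them by the aligner's default, and the part of this in the calls at the upstream TSS was not tested.

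Over the whole receptor span, macrophage H3K18la was dense for lists of their size. In BMDM 14 peaks covered 14.8% of the span, against 0.858% of the genome, and 8 of them lay off the gene bodies. Of 24762 stretches of equal length along the genome 0.521% were at least as covered. In PIM 7 peaks covered 18.6%, against 2.62% of the genome, and 3.28% of the stretches were at least as covered. ADIPO and GAS had 0 H3K18la peaks in the span, and the cover was 2.77% in MB, 2.71% in MT, 6.64% in mESC-ser and 20.4% in mESC-2i. The mESC-2i list covered 4.86% of the genome with a median peak width of 4595 bp, the widest of the 8 H3K18la lists, and 7.64% of the stretches were at least as covered in it. Cover alone thus did not set macrophages apart from mESC-2i. The positions were shared in part, since mESC-2i peaks overlapped 5 of the 14 BMDM peaks and 3 of the 7 PIM peaks, and missed the Fcgr4 promoter, the main Fcgr3 TSS and the element at −20.3 kb. With the 5000 largest peaks of each list, the cover came to 5.33% in BMDM and 6.35% in PIM.

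For H3K27ac the span was covered to 8.71% in BMDM and 5.66% in PIM, against 2.02% in ADIPO, 3.63% in GAS and 1.83% in mESC-ser. The genome shares were 1.25% in BMDM, 1.04% in PIM, 2.07% in ADIPO, 7.48% in GAS and 1.21% in mESC-ser, and the stretches at least as covered were 3.66%, 4.71%, 23.7%, 31.2% and 16.4% in the same order. With the upper 50% of each list by total signal the cover came to 5.88% in BMDM and 1.78% in PIM. For H3K4me3 it was covered to 20.7% in PIM (0.715% of the stretches at least as covered), 8.44% in GAS, 5.8% in mESC-ser and 5.93% in mESC-2i. Of the 4 GAS H3K4me3 peaks 3 lay in the gap between Fcgr4 and Fcgr3, which holds 5 tRNA genes, and the other over the upstream Fcgr3 TSS. PIM H3K4me3 peaks overlapped these 3 gap peaks too, and an mESC-ser peak overlapped that nearest Fcgr4. Part of the PIM cover thus lay at sites shared with other cell types. GAS had the most H3K27me3, with 8 peaks over 35.4% of the span (3.32% of the stretches), and MT had 11.9%. The remaining H3K27me3 lists covered 1.18% to 5.79%.

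**Figure D4:**
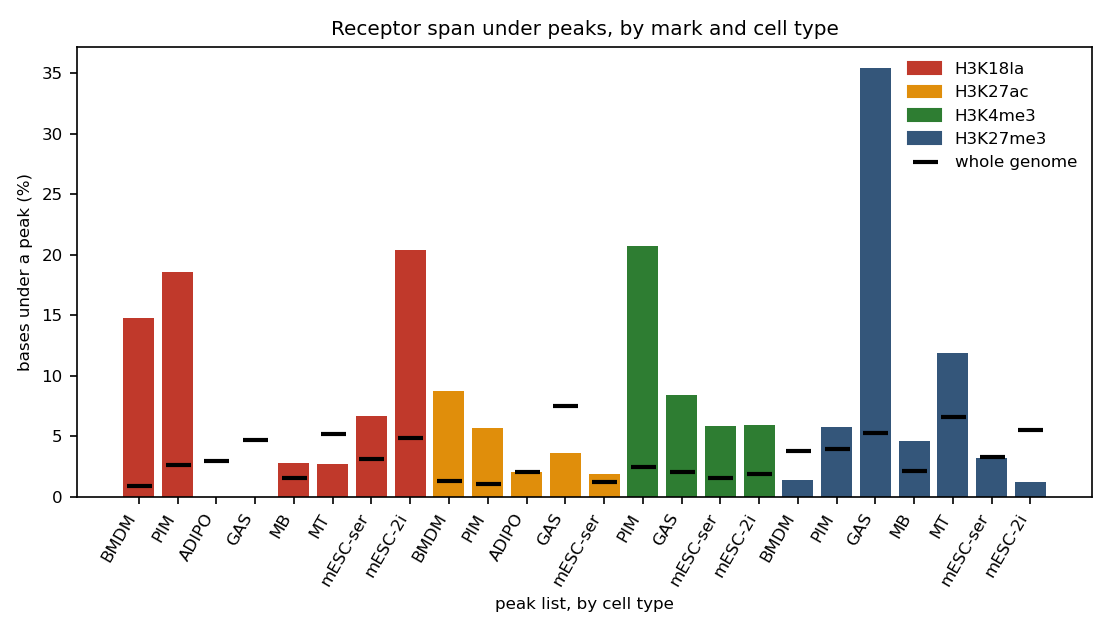
Percent of the receptor span (106319 bp) under a peak in each list (bars, coloured by mark), with the percent of the whole genome under a peak in the same list (black dashes). H3K18la covers 14.8% in BMDM, 18.6% in PIM and 20.4% in mESC-2i, PIM H3K4me3 covers 20.7%, and GAS H3K27me3 covers 35.4%, the highest bar.

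Fcer1g, the chain that carries the signal of the activating receptors, was marked in macrophages and in the H3K18la and H3K27ac lists of ADIPO and GAS. Its promoter was called in 5 of 5 macrophage active-mark lists, 4 of 12 others and 0 of 7 H3K27me3 lists. Its H3K27ac and H3K4me3 peaks were large, in the top 7.62% in BMDM H3K27ac, 10.1% in PIM H3K27ac and 2.13% in PIM H3K4me3. The BMDM H3K18la peak at its TSS was smaller, in the top 60.1%, and the PIM peak was in the top 19.5%. Relative to the nearest annotated start, maxima lay at −38 bp for BMDM H3K18la, −2 bp for BMDM H3K27ac, −32 bp for PIM H3K27ac and −8 bp for PIM H3K4me3. In PIM H3K18la the maximum was inside the gene, at 1253 bp.

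The widest cover of the Fcer1g promoter by H3K18la was in ADIPO, at 95.9% (top 15.7%), and ADIPO H3K27ac covered 63.3% (top 18.2%). In GAS the H3K18la peak covered 18.9%, missed the TSS and had its maximum at −1610 bp (top 84.6%), and H3K27ac covered 76.5% with a maximum at −1544 bp (top 38.3%). Of 6 macrophage marker genes, ADIPO H3K18la held 3 (Cd68, Cd14 and Mertk) and GAS H3K18la held 2 (Csf1r and Mertk), while Adgre1 and Itgam were not called in either. MT H3K18la held 4 of these markers and MB H3K18la 2, with no call at Fcer1g, and of all genes 44.7% were called in ADIPO and 36.1% in GAS. The part of resident macrophages in the Fcer1g peaks of these tissues was not tested.

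Fcgr2b, the inhibitory receptor, departed from the activating genes in that H3K18la was called within 2 kb of its starts without H3K27ac. BMDM had an H3K18la peak of 2324 bp over the TSS, and PIM one of 6754 bp, which at the top 6.29% was the largest PIM H3K18la peak in the span. PIM H3K4me3 covered the TSS with a peak of 4336 bp (top 13.7%, maximum at 120 bp). No H3K27ac peak overlapped its promoter windows in BMDM or PIM, but in PIM 1 peak lay just beyond their upstream edge and another inside the gene body, with its maximum at 2952 bp. With windows of 5000 bp to each side Fcgr2b was called for H3K27ac in PIM too, giving 9 of 10 macrophage calls for the 5 genes.

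Outside macrophages the peaks called at Fcgr2b mostly missed its TSS bases. The promoter was called in 3 of 5 macrophage active-mark lists and 7 of 12 others, but with the TSS base under the peak the counts were 3 of 5 and 1 of 12, the latter being mESC-2i H3K18la over the start of a short processed transcript inside the gene. The maxima of H3K18la in BMDM, PIM, MB, MT, mESC-ser and mESC-2i and of H3K27ac in PIM and mESC-ser, 8 lists of 6 cell types, fell within chr1:170978765-170978816. That position lies more than 2 kb upstream of the furthest Fcgr2b start, beside the start of the lncRNA Gm34968 (RefSeq, chr1:170977128-170978755, minus strand). The macrophages therefore shared this upstream maximum with myoblasts, myotubes and stem cells and differed from them in cover over the Fcgr2b TSS itself. GAS H3K27me3 covered 32.8% of the Fcgr2b windows.

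The neighbouring parts of the pathway were read from gene lists. Of 11 genes for ITAM adaptors and signalling, H3K18la was called at 5 in both macrophage lists (Tyrobp, Syk, Lyn, Fgr and Lcp2) and at all 11 in PIM, where 37.8% of all genes were called. The count of 5 in BMDM was also that of GAS, mESC-ser and mESC-2i, with 4 in ADIPO, 3 in MT and 1 in MB. Tyrobp, an ITAM adaptor like Fcer1g, and Lcp2, a scaffold below Syk, were in none of the other 6 lists, whereas Syk was called in 2 of them and Lyn and Fgr in 4 each. Of 6 genes for inhibitory signalling, 5 were called in both (Inpp5d and Ptpn6, the phosphatases recruited by ITIMs, with Dok2, Lilrb4a and Pirb), and the ITIM receptors Lilrb4a and Pirb were in none of the other 6, whereas Inpp5d and Dok2 were called in 3 of them and Ptpn6 in 5. Of 12 other Fc and Fc-like receptor genes 3 were called in both, namely Fcgrt, the neonatal Fc receptor of endosomes, called in 4 of the other lists too, and Fcrlb and Fcrl1, each called in 1 of them. Over all genes, the share called in both macrophage lists was the 17.2% given above and the macrophage-only share the 1.05%.

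The labelled cell types were checked against marker genes read in the same way. Both macrophage H3K18la lists held all 6 macrophage markers and 0 of 6 muscle and 0 of 4 stem cell markers, GAS and MT held all 6 muscle markers and MB 2 of them, ADIPO all 4 adipocyte markers and both stem cell lists all 4 stem cell markers. Macrophage markers were also called at 4 of 6 in MT and 2 of 6 in MB. Other myeloid and lymphoid markers were present in part. Markers of neutrophils, which also carry Fc receptors, were called at 2 of 4 in BMDM (S100a8 and Csf3r) and 3 of 4 in PIM (with Ly6g), B cell markers at 1 of 4 in both (Ms4a1), natural killer or T cell markers at 0 of 3 in BMDM and 1 of 3 in PIM (Klrb1c), endothelial markers at 2 of 3 in both, fibroblast markers at 0 of 2 in both and Adipoq as 1 of 4 adipocyte markers in both. Their part in the calls at the receptor genes was not tested.

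By the cover of their promoters over the 24 lists, the genes fell apart into different company. The measure is Pearson's r of the covered percent, a description over lists that share cell types and differ in depth. Closest to Fcgr1 were the myeloid receptor gene Cd300ld (r = 0.963), the C-type lectin receptor gene Clec12a (0.946), Nckap1l (0.93), a haematopoietic regulator of actin, Il10 (0.923) and Wfdc17 (0.9). Closest to Fcgr4 were Mefv (0.944), the pyrin gene, the nucleic acid sensor genes Tlr7 (0.941) and Tlr13 (0.922), Bcl2a1d (0.933) and the Siglec gene Cd33 (0.929). Among the closest to Fcer1g were Igsf6 (0.905), Tank (0.896), Atg7 (0.87) and Rcbtb2 (0.864). Fcgr2b had looser company in Ly6c2 (0.786), Spp1 (0.761), B430306N03Rik (0.748), Cd80 (0.727) and Bst1 (0.722). For Fcgr3 the closest were Intu (0.786), Pkib (0.762), D13Ertd608e (0.753), Gria3 (0.748) and Gpr85 (0.732), a set in which the H3K27me3 cover of its upstream TSS entered the measure. Among the 5 genes themselves r was highest between Fcgr1 and Fcgr4 (0.738) and between Fcgr1 and Fcgr3 (0.702), was 0.306 between Fcgr1 and Fcer1g and 0.379 between Fcgr1 and Fcgr2b, and was lowest between Fcgr2b and Fcer1g (0.014).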

How the data were processed

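CUT&Tag libraries of nuclei (whole cells for the stem cells) from 41 mouse samples were sequenced as 150-bp paired ends. The authors trimmed reads with Trim Galore 0.6.6, aligned them to mm10 with Bowtie2 2.4.4, combined the replicates of a cell type and mark, and called peaks with SEACR 1.3 in stringent mode on the top 1% of regions. A filter on mapping quality or duplicates is not given in the sources used here. The deposited lists give each peak's total signal, which is coverage summed over its bases without scaling for depth, and the position of its maximum. The height of the maximum was not used here. The lists carry no read counts and sequencing depth was not used here, so signal was ranked within a list and never compared between lists. The 24 lists held 11002 to 36813 peaks covering 22.6 to 197 Mb.

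Peaks were overlapped with GENCODE vM21 genes on chromosomes 1 to 19 and X (minimum overlap 1 bp) with Python 3.11.15, numpy 2.4.6 and pandas 2.3.3. The overlap code was tested on simulated data against bedtools 2.31.1. No test was made, since replicates were pooled before calling. Counts stand beside the share of 21755 genes called in the same list. The members and gene lists were chosen with earlier results of these data known. Genes named by likeness were the 5 with the highest r for each member, leaving out promoters that overlap those of a member, and neighbours were the genes sharing a peak or lying in the span. Some genes that these rules name are not reported here. Alternatives were other windows, overlaps, thresholds and TSSs, of which the TSS base alone and the main TSS of Fcgr3 alone were chosen after seeing the data.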

Additional observations from a re-analysis of the deposited data

How the results depend on the processing

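Of the recomputed values 52 stayed close to the reported one and 24 moved, counts by more than 1.5 times and cover beyond its binomial interval. Bases under a peak are not independent, so that interval is too narrow and the label says little for cover. No paired analysis was possible because the replicates were pooled before peak calling, and leaving out a replicate was not possible for the same reason. Half-widths of 1000 and 5000 bp, 1 TSS per gene and an overlap of 200 bp moved none of the counts by more than 1.5 times. With the 5000 largest peaks of each list, the promoter calls at the 5 genes fell to 4 of 10 in macrophages and 2 of 30 elsewhere for H3K18la, to 4 of 10 and 2 of 15 for H3K27ac, to 3 of 15 elsewhere for H3K4me3 and to 5 of 25 elsewhere for H3K27me3. With the upper 50% of each list by total signal, the calls elsewhere were 4 of 30 for H3K18la and 3 of 15 for H3K4me3. With the TSS base under the peak they were 5 of 30 and 3 of 15. With Fcgr3 counted by its main TSS alone, H3K4me3 calls elsewhere were 2 of 15, and H3K27me3 calls were 0 of 10 in macrophages and 5 of 25 elsewhere.

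The cover of the receptor span by H3K18la came to 10.2% in BMDM and 14.8% in PIM with the upper 50%, to 5.33% and 6.35% with the 5000 largest peaks, and to 7.53% and 13.8% when the span was extended to Fcer1g. By H3K27ac it came to 5.88% in BMDM and 1.78% in PIM under both stricter thresholds, and to 6.71% in BMDM for the extended span. Fewer peaks enter under the stricter thresholds, and the extension adds a stretch less covered in BMDM than the span itself. Without depth or replicate error, a missing peak says only that the region was not among those called.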
